A study of Mus musculus with 7 samples.

Results

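The subunits of the oxidative phosphorylation complexes that are encoded in the nucleus were followed in the choroid plexus of mouse embryos exposed to red blood cells or to saline. Members were taken from the deposited count table by gene symbol: the Nduf, Sdh, Uqcr, Cyc1, Cox4 to Cox8 and Atp5 families, without pseudogenes. The rule took 85 of 40873 genes: 36 of complex I, 4 of complex II, 9 of complex III, 19 of complex IV and 17 of complex V. Ndufa4, whose symbol belongs to complex I, was counted with complex IV, where its protein is now placed. Some subunit genes carry symbols that the rule does not take, among them Ndufab1 and Dmac2l.

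Pooled choroid plexus of the lateral ventricles came from wild-type CD-1 embryos, an outbred stock, at E15.5 (embryonic day). Both groups were collected 24 h after treatment and belong to batch 1 of the labels. The 3 red blood cell libraries came from embryos given blood cells of a donor litter at E14.5, collected in sodium citrate, spun down, washed in saline and resuspended. The protocol names no step that removes other blood cells. The 4 saline libraries came from embryos given saline, and how many embryos or litters made up a pool is not stated. P-values therefore measure the spread between these libraries. The RNA is from bulk tissue, in which fewer cells of a type and less RNA per cell cannot be told apart.

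Oxidative phosphorylation passes electrons from NADH through complex I, or from succinate through complex II, to coenzyme Q, then through complex III and cytochrome c to complex IV, which reduces oxygen. Complexes I, III and IV pump protons across the inner mitochondrial membrane, and complex V, the ATP synthase, uses the resulting gradient to make ATP. Most subunits are nuclear genes, and a small set of core subunits of complexes I, III, IV and V is encoded in mitochondrial DNA. The choroid plexus epithelium secretes cerebrospinal fluid by active ion transport and is rich in mitochondria.

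Total counts per library ran from 4393860 to 8386928, and the members held between 0.894% and 0.972% of them. The choroid plexus epithelium markers (Ttr, Clic6 and 8 others) were present in all 7 libraries, with summed levels of 17691 to 19165 CPM (counts scaled to library size) after red blood cells and 17978 to 22769 after saline. Although these sums overlapped, 9 of the 10 epithelial markers were fitted lower after red blood cells. In edgeR 4 of these 9 had an unadjusted p under 0.05 and 0 were called. The groups did not overlap for 2 of the 10, both lower after red blood cells. The 10 markers had -0.08 as their median log2 fold change. Macrophage markers summed to 370 to 533 CPM after red blood cells and 235 to 312 after saline, and all 11 had higher fitted values after red blood cells. In edgeR all 11 had an unadjusted p under 0.05 and 1 was called, with a median log2 fold change of 0.80. The groups did not overlap for 10 of the 11. Of all 14869 genes tested, 9.54% had an unadjusted p under 0.05 in edgeR (4.32% lower) and 0.0605% were called. The groups did not overlap for 9.59% of all genes tested, with red blood cells above in 4.96% and below in 4.63%. Hepatocyte genes reached 1441 CPM in saline library 4 and at most 19.1 elsewhere. Mesenchyme markers reached 2629.5 CPM in red blood cell library 3, against 1333 to 1756 in the other 6 libraries. The part of these markers in the values below was not tested.

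Promoters of the members held some motifs in a larger share than promoters of other expressed genes did, given here as a description with no test. Nuclear respiratory factor 1 (NRF1), a transcription factor known for binding promoters of respiratory chain genes, recognises a palindrome made of GCGCA followed by TGCGC. It was searched in this strict form and in a relaxed form, GCGCA then any base then GCGC, which contains the strict one. RefSeq promoter windows, from 250 bases before to 50 after a start on GRCm38.p6, were found for 69 of the 85 members. On either strand the relaxed form lay in the windows of 17 of these 69 genes (24.6%), beside 10.6% of 11525 tested genes and 5.19% of 27025 genes with a window. The strict form lay in 5 members (7.25%), beside 2.15% of tested genes. For each complex with a relaxed match wholly before the start, the gene with the highest mean CPM among those with such a match is printed here (CPM are not scaled by length), 5′ to 3′ on the gene's strand, with every match in capitals. Complex III had none, since the matches of Uqcrc1 lay after its start.
Ndufa11, chr17:56717690-56717723, plus strand: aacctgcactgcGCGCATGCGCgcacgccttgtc
Sdha, chr13:74350241-74350350, minus strand: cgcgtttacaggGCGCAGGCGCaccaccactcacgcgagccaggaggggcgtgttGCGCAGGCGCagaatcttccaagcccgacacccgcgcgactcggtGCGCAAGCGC
Cox6a1, chr5:115349054-115349132, minus strand: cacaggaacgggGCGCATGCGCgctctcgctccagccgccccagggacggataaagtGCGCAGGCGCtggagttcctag
Atp5c1, chr2:10080433-10080461, minus strand: gcctgagctcccGCGCACGCGCactgagt
Sdha, the flavoprotein of succinate dehydrogenase, carried 3 matches in the last 110 bases before its start, and Cox6a1 carried 2. The Atp5c1 start lies 78 bases inside the outermost start of that gene. A match describes the letters in the window and is not evidence of binding.

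Other motifs named for regulators of respiratory genes were less uniform, also on both strands. The YY1 motif AAGATGGCG lay in 7 of 69 members (10.1%) and in 3.22% of tested genes, with 5 of the 7 in complex I (Ndufa9, Ndufc1, Ndufs4, Ndufs6 and Ndufs7, chosen after their windows were seen). Complex I also supplied 32 of the 69 members with a window, and in complex V the motif lay in 2 of 15. The estrogen-related receptor motif TCAAGGTCA lay in 2 members (2.90%) and 0.312% of tested genes. The CREB motif TGACGTCA lay in 4 members (5.80%) and 3.37% of tested genes. The ETS motif CCGGAAGT, which GABP recognises, lay in 5 members (7.25%) and 8.33% of tested genes, and the SP1 motif GGGGCGGGG in 11 (15.9%) and 24.0%. The SP1 motif was thus present in a smaller share of members than of tested genes, while the ETS shares were close to each other.

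Levels were compared between genes per exon length, as TPM (transcript share scaled by length) in the saline libraries. The median member had 289 TPM, against 22.3 TPM for the median of all 14869 genes tested. Medians by complex were 195 TPM for complex I, 256 for complex II, 295 for complex III, 478 for complex IV and 518 for complex V. The ATP synthase beta subunit Atp5b, which carries the catalytic sites, was the highest member at 1437 ± 44.7 TPM (SD, n = 4). The next were Cox4i1 (1375 ± 43.0 TPM), the nuclear subunit of complex IV that binds ATP, Cox8a (1234 ± 105 TPM) and Ndufa4 (1182 ± 36.9 TPM). The SD ranges of Atp5b and Cox4i1 overlapped, as did those of Cox8a and Ndufa4.

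In 4 of the 5 complexes the levels of single subunits differed by more than 5-fold. In complex I the range was 5.88-fold, from Ndufa11 at 81.0 ± 4.77 TPM to Ndufa3 at 476 ± 26.4 TPM. The 4 subunits of complex II were the closest together, 1.62-fold from Sdhb (192 ± 15.8 TPM) to Sdhc (310.0 ± 11.6 TPM). Complex III spanned 5.67-fold, from Uqcrq (132 ± 10.3 TPM) to the hinge protein Uqcrh (750 ± 47.9 TPM). Tested genes of complex IV, with its low isoforms, spanned 151-fold from Cox4i2 (9.10 ± 2.31 TPM) to Cox4i1. Complex V spanned 6.49-fold, from Atp5mpl (222 ± 7.90 TPM) to Atp5b. These levels depend on the length used: the deposited exon length is the union of all annotated exons, 2661 bases for Ndufa11 and 3153 for Cox5a (66.5 ± 4.73 TPM), and a long minor isoform in that union lowers the TPM. Ndufa11, Ndufa3 and Uqcrq were named after their levels were seen.

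**Figure D1:**
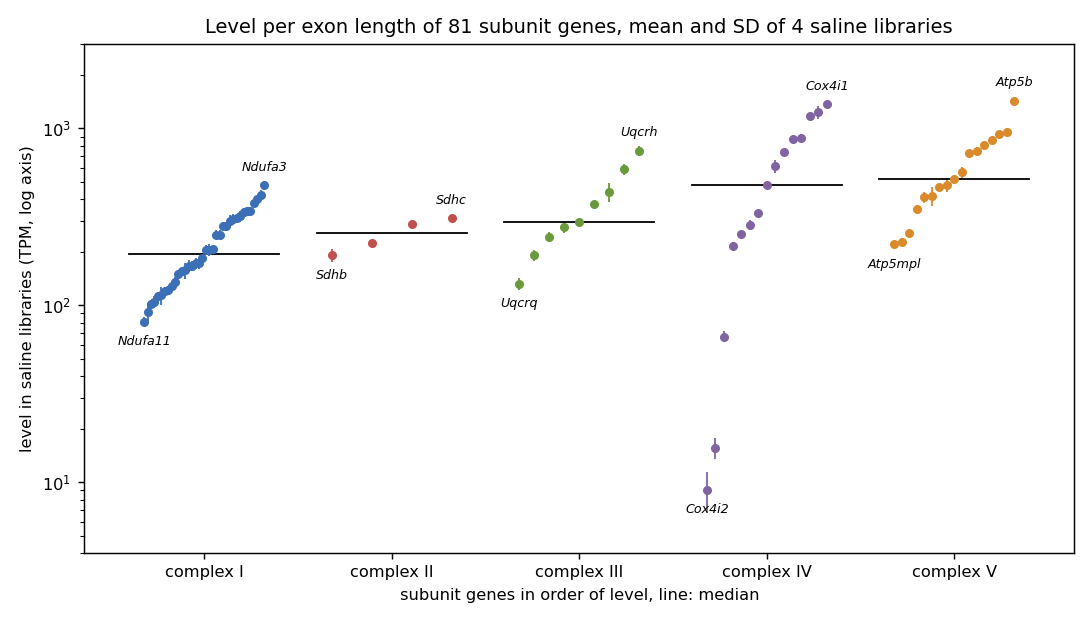
Level of the 81 tested subunit genes in the saline libraries (vertical log axis, TPM), ordered by level within each complex; points are means and bars SD over 4 libraries, and the horizontal line is the median of the complex. Medians run from 195 TPM in complex I to 518 TPM in complex V, and the 3 low points of complex IV are Cox5a, Cox7a1 and Cox4i2.

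Complex IV holds the subunits that exist as tissue or condition isoforms, and the choroid plexus expressed mainly the general forms. Cox4i2, the isoform known for oxygen-sensitive expression, made up 0.681% ± 0.157 of Cox4 transcripts after red blood cells (SD, n = 3) and 0.659% ± 0.175 after saline (SD, n = 4), as a share of TPM. Cox7a1, the form typical of heart and skeletal muscle, made up 4.98% ± 0.497 and 4.51% ± 0.567 of the sum with Cox7a2. Muscle marker genes were low in these libraries (29.4 to 76.9 summed CPM). Cox6b2, a form best known from testis, made up 20.1% ± 1.07 and 19.9% ± 0.692 of Cox6b.

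Cox6b2 stood at 48.6, 46.1 and 41.8 CPM after red blood cells and at 43.7, 43.6, 40.7 and 48.9 after saline. The groups overlapped, and the fold change was 1.03 (95% interval 0.900 to 1.19, edgeR adjusted p = 0.935). The muscle forms Cox6a2 and Cox8b held at most 3 counts in any library, and Cox7b2 and Cox8c held 0 counts in every library. A count of 0 allows up to 3 counts, which is 0.358 CPM in the deepest library and 0.683 CPM in the shallowest. These limits cover counting error only. These 4 genes were below the count filter and were not tested, which left 81 members.

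Of the 81 tested members, 0 passed the adjusted threshold of 0.05 between red blood cells and saline in edgeR, where 9 of 14869 genes (0.0605%) did. The lowest adjusted p among members was 0.497. DESeq2 called 0 members where it called 277 of 14847 genes (1.87%), and limma-voom called 0 members where it called 9 genes (0.0605%). Without red blood cell library 3 edgeR called 0 members and 283 of 15175 genes (1.86%). At an unadjusted p under 0.05 edgeR gave 2 members (Ndufa1 and Cox7a2l), both lower, against 9.54% of all genes in either direction and 4.32% lower. DESeq2 gave 0 members against 7.51% of all genes, and limma-voom 2 against 9.69%. All red blood cell libraries lay on one side of all saline libraries for 3 members, against 9.59% of all genes (4.96% above and 4.63% below). Fitted values were higher for 38 members and lower for 43, with a median log2 fold change of -0.01 beside -0.00 for all genes.

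The fold changes were small and estimated closely. Log2 fold changes of the members ran from -0.18 (Ndufa1) to 0.18 (Ndufb1), with an interquartile range of 0.085, against 0.167 for all genes with a mean count of at least 50. The 95% interval lay within 1.25-fold in either direction for 73 of the 81 members (90.1%), beside 37.4% of all genes and 48.2% of genes averaging 50 counts or more. It lay within 1.5-fold for 79 members (97.5%), beside 68.0% of all genes and 85.6% of genes averaging 50 counts or more. These shares were not matched for abundance, and closeness was not particular to the members. The interval lay within 1.25-fold for all 17 tricarboxylic acid cycle genes and 89.2% of cytosolic ribosomal protein genes. Among mitochondrial ribosomal proteins the share was 49.3%, and among assembly factors 29.8%. The 8 members whose interval passed 1.25-fold were Ndufa1, Ndufa5, Ndufb1, Ndufb4, Cox4i2, Cox7a1, Cox7a2l and Atp5g1. The widest were the low isoforms Cox4i2 (0.599 to 1.62-fold) and Cox7a1 (0.727 to 1.70-fold), with mean counts of 14.3 and 16.3 per library.

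**Figure D2:**
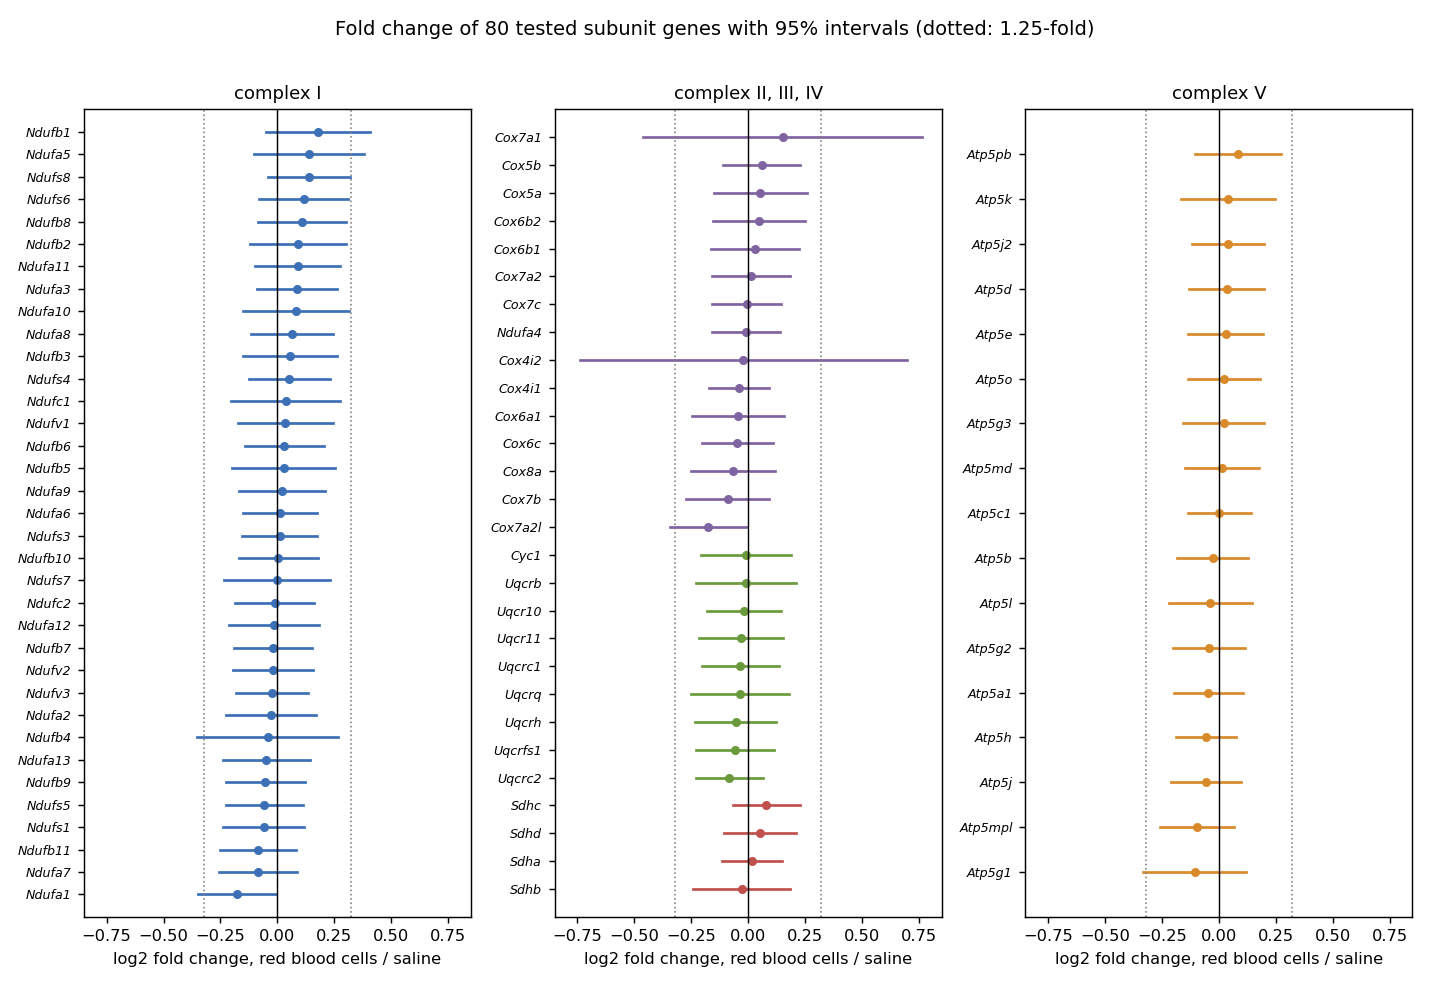
Log2 fold change of 80 of the 81 tested members, red blood cells over saline (horizontal axis; points, fitted value; bars, 95% interval; dotted lines, 1.25-fold), in panels by complex. No member passed the adjusted threshold, and all but 8 of the intervals drawn stay between the dotted lines.

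Complex I takes electrons from NADH through the flavin site of Ndufv1 and a chain of iron-sulphur clusters to coenzyme Q. Its 7 core and 29 accessory nuclear subunits summed to 2399.5 ± 92.2 CPM after red blood cells (SD, n = 3) and 2398.3 ± 81.6 after saline (SD, n = 4). Fitted values were higher for 20 and lower for 16, with a median log2 fold change of 0.01. The core subunits had a median of -0.00 and the accessory subunits of 0.02.

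Ndufv1 stood at 64.4, 82.0 and 74.4 CPM after red blood cells and at 71.8, 77.8, 65.6 and 72.0 after saline. The groups overlapped along most of their range (fold change 1.02, 95% interval 0.888 to 1.18). Ndufs1, the largest iron-sulphur subunit, stood at 130, 115 and 107 CPM after red blood cells and at 128, 116, 126 and 120 after saline (0.959-fold, 0.849 to 1.08). The highest and the lowest value of Ndufs1 were both among the red blood cell libraries.

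Ndufs8, an iron-sulphur subunit close to the coenzyme Q site, was the one core subunit whose groups did not overlap, and it was named for that. It stood at 41.2, 44.2 and 40.6 CPM after red blood cells and at 39.7, 36.9, 37.7 and 38.2 after saline. The lowest red blood cell library exceeded the highest saline library by less than 1 CPM. Its fold change was 1.10 (95% interval 0.972 to 1.25, edgeR adjusted p = 0.669).

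Ndufa1 (chrX:36451241-36454891 on GRCm39, minus strand), a small membrane subunit needed for assembly of complex I, had the lowest fold change of all members. It stood at 47.5, 43.4 and 43.8 CPM after red blood cells and at 51.7, 52.8, 48.3 and 50.5 after saline. All red blood cell libraries lay below all saline libraries, with 47.5 and 48.3 CPM as the nearest pair. The fold change was 0.885 (95% interval 0.785 to 0.997), with an edgeR adjusted p of 0.501, so the difference did not pass over all genes. Exons of the gene model Gm39503, on the opposite strand, cover 31.2% of those of Ndufa1 (mean counts of 48.6 and 315 per library). The strand setting of the counting is not known, so reads of such pairs may not be separable.

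At the other end stood Ndufb1 and Ndufa5, accessory subunits of the membrane arm and of the peripheral arm. Ndufb1 had 44.3, 40.4 and 35.7 CPM after red blood cells and 34.0, 32.6, 36.5 and 39.4 after saline. Red blood cell libraries 1 and 2 lay above all saline libraries and library 3 lay among them (1.13-fold, 0.967 to 1.33, edgeR adjusted p = 0.656). Exons of Cpsf2 on the opposite strand, with a mean count of 555, cover 23.3% of those of Ndufb1, whose mean count was 246. Ndufa5 had 33.5, 37.8 and 35.1 CPM against 29.7, 29.2, 32.5 and 38.0. Here saline library 4 was the highest of all 7 and the other 3 saline libraries were the lowest (1.10-fold, 0.932 to 1.30, edgeR adjusted p = 0.779). Ndufb4, the complex I subunit with the fewest counts, ranged from 14.7 to 15.0 CPM after red blood cells and from 12.5 to 17.6 after saline.

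Complex II, succinate dehydrogenase, is also an enzyme of the tricarboxylic acid cycle and is the one complex with no mitochondrially encoded subunit. Its 4 genes summed to 545 ± 19.3 CPM after red blood cells and 533 ± 13.3 after saline. Sdha had 214, 220 and 208 CPM after red blood cells and 205, 221, 206 and 214 after saline. The groups overlapped along nearly all of their range, and this was the closest estimate among members (1.01-fold, 0.925 to 1.11). The iron-sulphur subunit Sdhb had 65.5, 74.6 and 60.3 CPM against 63.7, 74.3, 62.1 and 73.2 (0.981-fold, 0.847 to 1.14).

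The membrane anchors Sdhc and Sdhd, which hold the coenzyme Q site and the haem, were fitted higher. Sdhc had 142, 144 and 133 CPM after red blood cells and 135, 135, 123 and 137 after saline (1.06-fold, 0.954 to 1.17, edgeR adjusted p = 0.804). Red blood cell library 3 fell among the saline libraries. Sdhd had 127, 135 and 118 CPM against 120, 116, 128 and 126 (1.04-fold, 0.928 to 1.16). Neither anchor separated the groups.

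Complex III passes electrons from coenzyme Q to cytochrome c through cytochrome b, the Rieske iron-sulphur protein Uqcrfs1 and cytochrome c1 (Cyc1). All 9 of its nuclear genes were fitted lower, with log2 fold changes from -0.08 to -0.01 and a median of -0.03. That median was smaller than the SD of the same median over the saline libraries (0.066). It turned to 0.02 when red blood cell library 3 was left out, and was -0.09 without red blood cell library 2, so its sign rested on red blood cell library 3. Summed levels were 942 ± 49.1 CPM after red blood cells and 972 ± 28.6 after saline.

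Uqcrfs1 stood at 99.7, 110 and 94.5 CPM after red blood cells and at 109, 99.2, 111 and 103 after saline (0.962-fold, 0.855 to 1.08). Cyc1 stood at 95.9, 108 and 89.1 CPM against 96.6, 106, 88.2 and 103 (0.993-fold, 0.866 to 1.14). Red blood cell library 2 was the highest of all libraries for Cyc1 and close to the highest for Uqcrfs1. Red blood cell library 3 was the lowest of all for Uqcrfs1 and close to the lowest for Cyc1. The core protein Uqcrc2 had the lowest fold change of the complex, with 179, 178 and 162 CPM against 179, 173, 190 and 190 (0.944-fold, 0.853 to 1.05, edgeR adjusted p = 0.791). Its partner Uqcrc1 had 148, 153 and 142 CPM against 165, 150, 135 and 156 (0.976-fold, 0.869 to 1.10). Uqcrb and Uqcrh, small subunits at opposite faces of the complex, had fold changes of 0.993 (0.853 to 1.16) and 0.962 (0.851 to 1.09).

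Complex IV, cytochrome c oxidase, carries its haem and copper centres on mitochondrially encoded subunits, around which the nuclear Cox subunits assemble. The 15 tested genes were fitted higher in 6 and lower in 9, with a median log2 fold change of -0.01. The summed level of all 19 was 1700 ± 57.6 CPM after red blood cells and 1737 ± 70.7 after saline. Cox4i1, needed early in assembly, had 331, 350 and 328 CPM after red blood cells and 360, 340, 329 and 356 after saline. The groups overlapped (0.972-fold, 0.887 to 1.06). Cox8a had 210, 231 and 195 CPM against 248, 215, 201 and 224 (0.954-fold, 0.841 to 1.08), and Cox5a and Cox5b, on the matrix side, had fold changes of 1.04 (0.901 to 1.20) and 1.04 (0.927 to 1.17).

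Cox7a2l (chr17:83809346-83821762 on GRCm39, minus strand), known for joining complexes III and IV in supercomplexes, had the lowest adjusted p of the members. It stood at 78.9, 83.0 and 92.5 CPM after red blood cells and at 100.2, 93.2, 96.5 and 92.4 after saline. Red blood cell libraries 1 and 2 lay below all saline libraries, and library 3 lay just above saline library 4. The fold change was 0.886 (95% interval 0.787 to 0.996, edgeR adjusted p = 0.497). Across the 18 alternative settings its log2 fold change ran from -0.24 to -0.12, with a lowest adjusted p of 0.177 without red blood cell library 3.

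Complex V is built of the catalytic F1 head, a peripheral stalk and a membrane sector with a rotating c ring. Its 17 genes summed to 3790 ± 172 CPM after red blood cells and 3835 ± 101 after saline, with 9 fitted higher, 8 lower and a median of 0.00 on the log2 scale. Atp5b had 875, 945 and 804 CPM after red blood cells and 867, 899, 845 and 954 after saline (0.982-fold, 0.881 to 1.09). Atp5a1, the alpha subunit of F1, had 705, 785 and 670.1 CPM against 768, 747, 701 and 759 (0.968-fold, 0.872 to 1.08). Both genes were lowest in red blood cell library 3.

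The c ring is encoded by 3 genes whose mature proteins are identical, so their transcripts can be read as shares of one supply. Atp5g3 made up 38.4% ± 2.09 of the 3 genes' TPM after red blood cells and 36.9% ± 0.900 after saline, Atp5g2 33.3% ± 1.71 and 33.4% ± 1.76, and Atp5g1 28.4% ± 1.83 and 29.6% ± 2.21. Atp5g1 had 137, 123 and 122 CPM after red blood cells and 154, 113, 133 and 150 after saline. The red blood cell values lay within the saline range (0.929-fold, 0.794 to 1.09, edgeR adjusted p = 0.846). Atp5pb, subunit b of the stalk, had the highest fold change of the complex, with 286, 255 and 227 CPM against 227, 227, 259 and 256 (1.06-fold, 0.930 to 1.21).

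Atp5mpl (chr12:111927808-111933443 on GRCm39, minus strand), a small membrane subunit, was the third member whose groups did not overlap. It stood at 51.5, 50.8 and 47.1 CPM after red blood cells and at 53.9, 54.4, 52.2 and 52.6 after saline. The nearest pair, 51.5 and 52.2 CPM, differed by less than 1 CPM. The fold change was 0.936 (95% interval 0.836 to 1.05, edgeR adjusted p = 0.776). Atp5k, another membrane subunit, had 52.9, 57.2 and 46.7 CPM against 56.4, 49.9, 49.3 and 47.5, with its highest and lowest value both among the red blood cell libraries.

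For the members as a whole, libraries of one group differed by more than the groups did. Of the 81 members, 29 had their lowest level in red blood cell library 3 and 28 in saline library 3, while 25 had their highest in red blood cell library 2 and 22 in saline library 4. The median difference from the saline mean over all members was 0.01, 0.06 and -0.09 (log2) in red blood cell libraries 1 to 3. In saline libraries 1 to 4 it was 0.02, -0.01, -0.07 and 0.07. Each group thus held a library in which most subunits were somewhat low and one in which they were somewhat high. By the same median, each of the 5 complexes had red blood cell library 2 as the highest of its group and library 3 as the lowest.

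Other measures moved with these libraries in part. Red blood cell library 3 had the highest mesenchyme level, as given above, the highest endothelial level (1063 CPM against 672 to 866) and the highest level of cytosolic ribosomal proteins (24403 CPM). Saline library 3 had the lowest level of cytosolic ribosomal proteins (21729 CPM) and mesenchyme markers at 1697 CPM, within the range of the other saline libraries. Saline library 4, with the hepatocyte genes, also had the fewest counts and the highest summed epithelial level, but not the highest median over the 10 epithelial markers (-0.01 log2 from the saline mean, against 0.03 in saline library 3). The part of any of these in the order of the libraries was not tested. Without red blood cell library 2 and saline library 4 together the members' median log2 fold change was -0.00, and without red blood cell library 3 it was 0.03, with 57 members fitted higher and 24 lower. The balance also moved without other single libraries. It was 54 higher and 27 lower without saline library 4. Without red blood cell library 2 it was 29 and 52, and without red blood cell library 1 it was 30 and 51. Without saline library 1, 2 or 3 it was 38 and 43, 35 and 46, and 38 and 43.

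**Figure D3:**
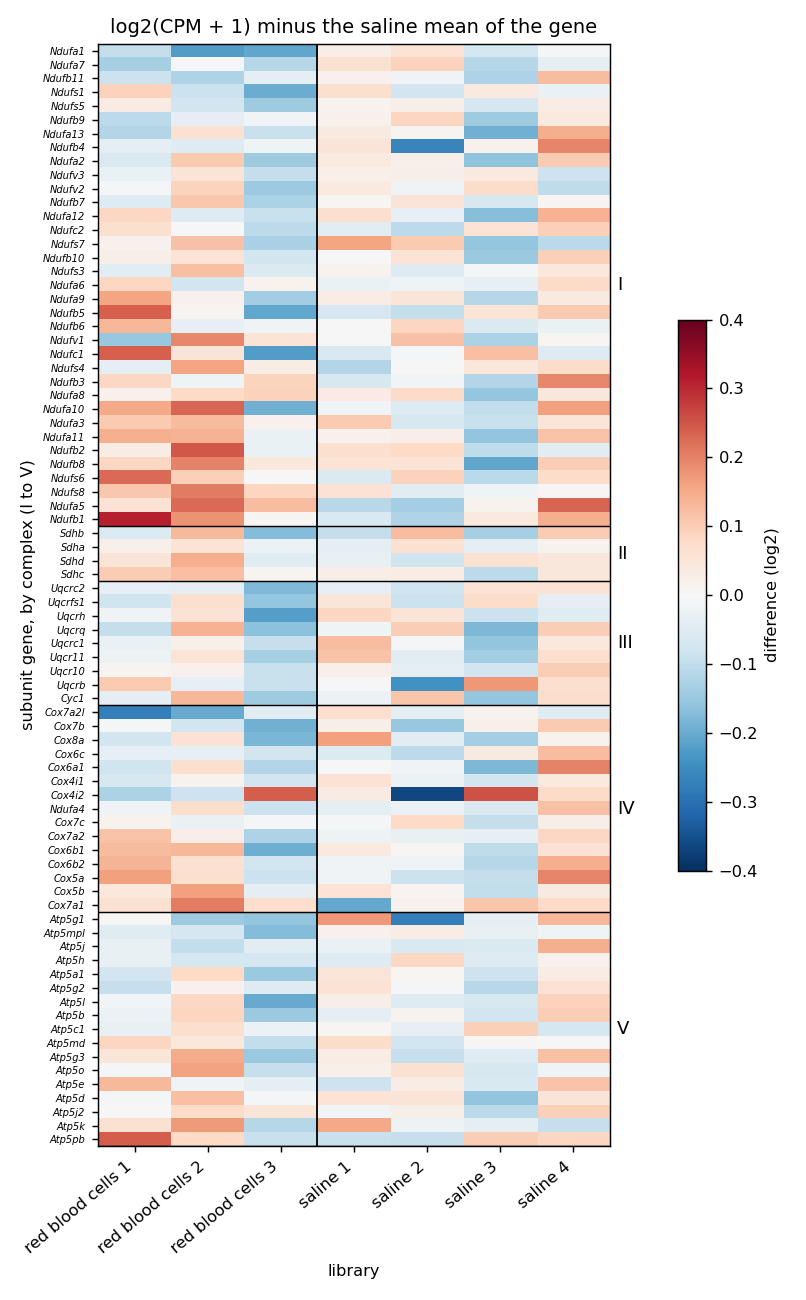
Level of 80 of the 81 tested members (rows, by complex) in each library (columns), as log2(CPM + 1) minus the gene's saline mean; red is higher, blue lower, and the vertical line separates red blood cells from saline. Red blood cell library 3 and saline library 3 are blue over many rows, and red blood cell library 2 and saline library 4 are red over many.

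**Figure D4:**
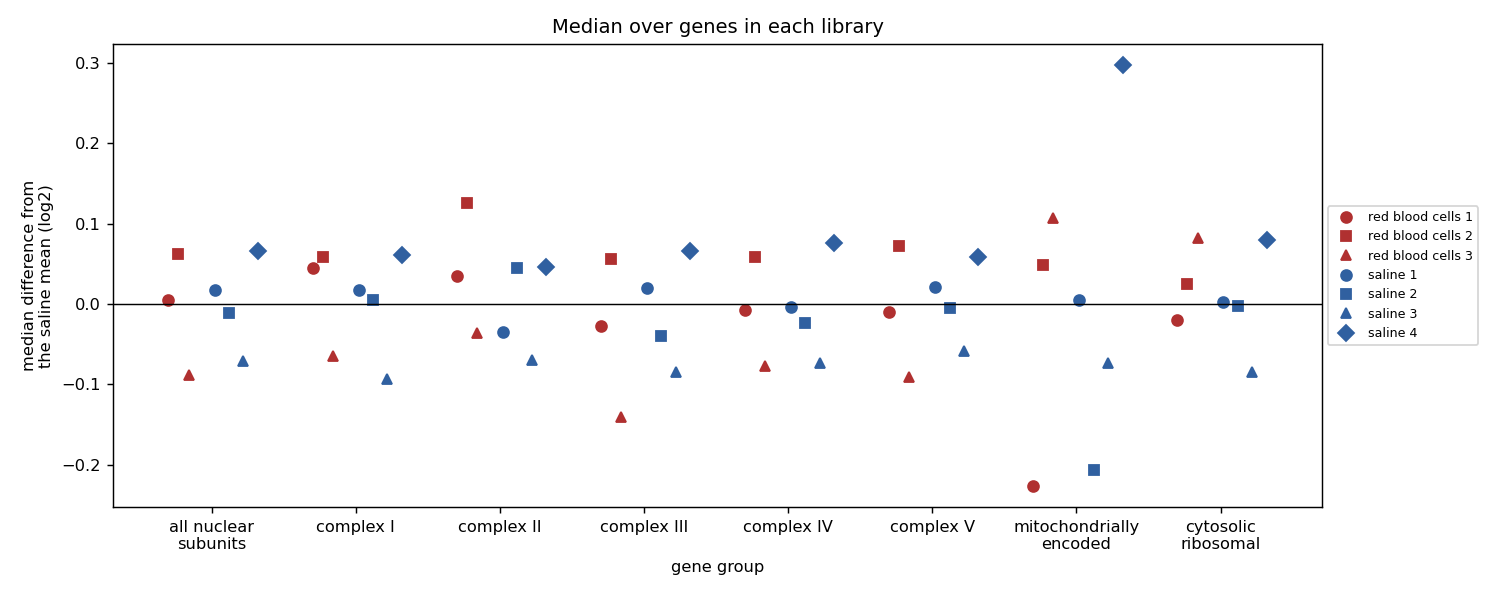
Median over genes of the log2 difference from the saline mean (vertical axis) in each of the 7 libraries (red, red blood cells; blue, saline; symbols, replicate number) for all nuclear subunits, each complex and 2 other lists. For all nuclear subunits the red blood cell libraries span -0.09 to 0.06 and the saline libraries -0.07 to 0.07, while the mitochondrially encoded subunits place red blood cell library 3 highest of its group and saline library 4 highest of all.

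Mitochondrially encoded subunits shared the order of the nuclear ones only in part. Their summed level was 8867, 10464 and 11202 CPM after red blood cells and 10349, 8983, 9705 and 12163 after saline, so red blood cell library 3, low for nuclear subunits, was the highest of its group. By the median over genes, saline library 4 was the highest and saline library 1 the next of the saline group in both sets. Of the 13 genes 7 were tested, with 3 fitted higher, 4 lower and 0 called, and their median was -0.01 on the log2 scale. COX1, the catalytic subunit of complex IV, stood at 2974 ± 472 CPM after red blood cells and 2951 ± 529 after saline (log2 fold change 0.01 ± 0.15 SE). CYTB of complex III stood at 1935 ± 224 and 1998 ± 317 CPM (-0.05 ± 0.12 SE). Mitochondrial messengers have short poly(A) tails, and several of them held few counts here, so their levels describe what the poly(A) selection and the counting kept.

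The genes that assemble, feed and regulate the chain were described by the same fit, each list by its counts and its median. Of 49 assembly factors 47 were tested, 23 fitted higher and 24 lower, with 0 called and a median log2 fold change of -0.00. Their most abundant genes were Coa5, a complex IV assembly factor (0.12 ± 0.07 SE), and Oxa1l, the inner membrane insertase (-0.12 ± 0.08 SE). Of 17 electron carrier and coenzyme Q synthesis genes 7 were higher and 10 lower (0 called, median -0.01), with the electron transfer flavoprotein genes Etfa at 0.04 ± 0.08 SE and Etfb at -0.10 ± 0.08 SE. Of 17 tricarboxylic acid cycle genes 6 were higher and 11 lower (0 called, median -0.04), with Ogdh of the oxoglutarate dehydrogenase complex at -0.07 ± 0.07 SE.

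Of 20 glycolysis genes 9 were higher and 11 lower, with 0 called and a median of -0.02. Pyruvate kinase Pkm had 912 ± 69.3 CPM after red blood cells and 928 ± 32.7 after saline, and Gapdh 862 ± 143 and 845 ± 50.5. Of 14 regulators of mitochondrial biogenesis 7 were higher and 7 lower (0 called, median -0.03), with Yy1 at 0.00 ± 0.06 SE and Lrpprc, which stabilises mitochondrial messengers, at 0.13 ± 0.10 SE. Mitochondrial ribosomal proteins were fitted higher in 48 of 75 (0 called, median 0.04), with the most abundant, Mrps6, at -0.13 ± 0.08 SE and Mrpl49 at -0.18 ± 0.08 SE. Cytosolic ribosomal proteins were fitted higher in 62 of 83 (0 called, median 0.03), with Rpl4 at -0.02 ± 0.06 SE and Rpl7 at 0.01 ± 0.06 SE. For both ribosomal lists the 2 most abundant genes had the opposite sign to the list's median in 3 of 4 cases.

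**Figure D5:**
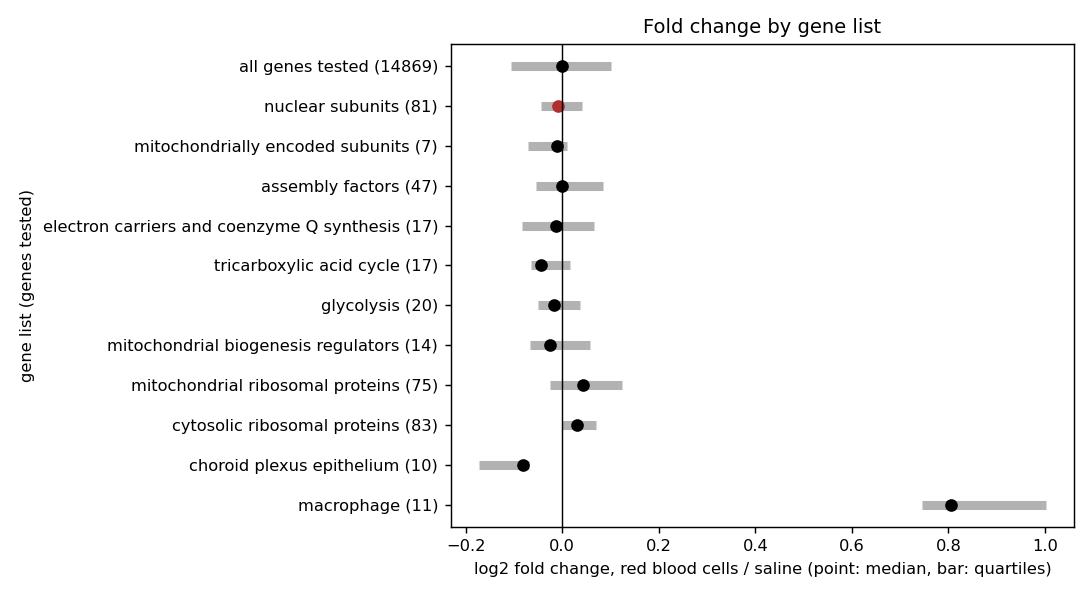
Log2 fold change, red blood cells over saline (horizontal axis), of 12 gene lists with the number of genes tested in brackets; points are medians and bars the quartiles over genes. The nuclear subunits have a median of -0.01 and lie close to 0, as do the other mitochondrial lists, while the macrophage markers have a median of 0.80.

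Of 4 related genes whose symbols the rule does not take (Ndufab1, Ndufa4l2, Dmac2l and the electron carrier gene Cycs), 2 were fitted higher, 2 lower and 0 called, with a median log2 fold change of -0.04 and a range from -0.12 to 0.07. Ndufab1, the acyl carrier protein of complex I, stood at 71.5 ± 8.76 CPM after red blood cells and 70.6 ± 1.90 after saline (log2 fold change 0.02 ± 0.09 SE). Cycs, somatic cytochrome c, stood at 57.4 ± 5.32 and 54.9 ± 3.02 CPM (0.07 ± 0.09 SE). Members with a relaxed NRF1 match, such as Ndufa11, Sdha, Cox6a1 and Atp5c1 printed above, had a median log2 fold change of 0.02 (17 genes, 11 fitted higher), and those without one a median of 0.01 (50 genes, 26 fitted higher). Both medians were smaller than the SD of the members' median over the saline libraries (0.057).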

How the data were processed

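Poly(A) RNA of 7 libraries was prepared with a directional protocol, per the labels' protocols. The authors deposited raw read counts per gene with gene positions and exon lengths. Per the submitters' processing notes the tools were cutadapt 2.5, STAR 2.6.1b and featureCounts 2.0.6 with GRCm39. The annotation release and the settings for strand and multi-mapping reads are not known, so values of overlapping genes and of genes with processed copies are uncertain. The 6 genes whose lines are broken were left out, and the unnamed rows hold 0.1066% of counts.

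Counts were tested with edgeR 4.0.16 (R 4.3.3): TMM normalization, filterByExpr (14869 genes kept), robust quasi-likelihood F test, two-sided, no block, Benjamini-Hochberg adjustment over all genes tested, threshold 0.05. The common biological coefficient of variation was 13.7%. Fold changes are red blood cells over saline. Standard errors (SE) were derived from the F statistic, and 95% intervals from them with the fit's degrees of freedom (about 11.5). CPM use TMM library sizes, sums over genes use total counts, and TPM use the deposited exon lengths. Pseudocount 1 was used for library differences on the log2 scale. The procedure was tested on simulated data.

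DESeq2 1.42.0, limma 3.58.1 (voom), other normalizations and filters, a replicate block and leaving out libraries were alternatives. Motifs were searched in RefSeq windows on GRCm38.p6, whose coordinates are given with them. Other positions are those of the deposited table.

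Named members were chosen by rule: all called members, the 3 most abundant per complex, the 2 highest and 2 lowest fold changes per complex at a mean count of at least 50, isoform pairs, all Sdh genes and catalytic subunits. Of the other lists, the 2 most abundant genes were named where none was called. The single values of 2 genes that these rules take are not reported here, and the counts and medians include them. Members, lists and rules were chosen with earlier results of these data known. Members named outside the rule were chosen after their values were seen: Ndufs8, Ndufb4, Ndufa11, Ndufa3, Uqcrq, Atp5g2, Atp5g3, Atp5c1, Ndufa9, Ndufc1, Ndufs4, Ndufs6 and Ndufs7.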

Additional observations from a re-analysis of the deposited data

Results flagged for a closer look

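Of 60 values examined for a saline library standing apart from the other 3 (a gap beyond Dixon's 95% critical value for 4 values), 4 did so, and chance alone gives about 1 in 20. Cox7a2, the general form of its complex IV subunit, was 87.3 CPM in saline library 4 and 80.4 to 81.1 CPM in the others. Sdhc, the membrane anchor of complex II, was 123 CPM in saline library 3 and 135 to 137 CPM in the others. The hepatocyte genes summed to 1441 CPM in saline library 4 and 1.93 to 19.1 CPM in the others. The cardiac and skeletal muscle genes summed to 76.9 CPM in saline library 3 and 39.7 to 45.3 CPM in the others.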

How the results depend on the processing

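No member was called under any of the 18 alternatives to the edgeR test, and the medians of all members and of each complex moved by less than the SD of that median over the saline libraries. Of 648 alternative log2 fold changes of the named members, 646 stayed within 1 SE of the reported value and 50 changed sign, in 20 members. The number of all genes called was 9. It was 277 with DESeq2, with or without independent filtering, 136 with no low-count filter, 16 without robust estimation, 40 without red blood cell library 2 and saline library 4, and from 1 (without saline library 1, 2 or 3) to 283 (without red blood cell library 3) when single libraries were left out. With the replicate number as a block it was 2, with 0 members called, 52 members fitted higher and 29 lower, and a members' median of 0.02. The numbers were not taken as a pairing, since same-numbered libraries correlated at -0.12, -0.12 and -0.18 over deviations from group means, and no library correlated best with its own number. With 3 and 4 libraries, Cox4i2 and Cox7a1 (mean counts 14.3 and 16.3) had intervals wider than 1.5-fold, so smaller changes were not detectable at this depth.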

Other observations

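A few genes of the other lists, chosen after their values were seen, lay further from 0 than any subunit without passing the adjusted threshold. Slc16a3, which exports lactate, stood at 10.5, 16.3 and 11.2 CPM after red blood cells and at 6.21, 7.54, 6.22 and 4.40 after saline. The groups did not overlap (log2 fold change 1.04 ± 0.22 SE, edgeR adjusted p = 0.113). The lactate dehydrogenase gene Ldha had 434 ± 92.1 CPM (SD, n = 3) and 429 ± 28.9 (SD, n = 4).

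Ppargc1a, a coactivator known for raising transcription of respiratory genes, stood at 29.9, 30.7 and 32.2 CPM after red blood cells and at 37.5, 37.2, 38.6 and 33.6 after saline. Again the groups did not overlap (log2 fold change -0.25 ± 0.09 SE, edgeR adjusted p = 0.334). Tmem126b, an assembly factor of complex I, stood at 13.9, 14.8 and 13.2 CPM against 12.4, 10.4, 11.2 and 8.11 (log2 fold change 0.40 ± 0.16 SE, edgeR adjusted p = 0.437). The same lists also held log2 fold changes in the opposite direction. These reached -0.28 among glycolysis genes, 0.26 among regulators of mitochondrial biogenesis and -0.54 among assembly factors. Groups that do not overlap were seen for 9.59% of all genes tested.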
